A study of Mus musculus with 12 samples.

Results

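The 10 genes described here are the FGF ligand, the FGF receptors and the negative feedback and target genes of ERK signalling: Fgf4, Fgfr1, Fgfr2, Dusp4, Dusp6, Spry2, Spry4, Spred1, Etv4 and Etv5. They were found by symbol, and each matched 1 of the 34245 genes of the deposited table. The data were mRNA-Seq libraries of mouse blastocysts in which p38-MAPK had been inhibited. All embryos came from matings of F1 hybrid (C57Bl6 x CBA/W) females with F1 males, were isolated at the 2-cell stage, and grew in KSOM with amino acids until E3.5. Pools of 30 blastocysts then stayed in medium with the solvent DMSO (control) or with 20 µM SB220025, an inhibitor of p38-MAPK (p38-MAPKi), for 4, 7, or 10 h, and each of the 6 groups had 2 biological replicates. Each library came from whole blastocysts, so trophectoderm, epiblast, and primitive endoderm (PrE) were measured together, and fewer cells of a type and less RNA per cell cannot be told apart. The inhibitor was given to the whole embryo, with no genetic control of its target.

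In the blastocyst, FGF4 is made by the cells that form the epiblast and is read by the receptors FGFR1 and FGFR2 on neighbouring inner cells. The receptors signal through RAS to the kinases MEK and ERK, and this signal directs inner cells to the PrE. ERK activity raises the expression of its own brakes, among them the phosphatases DUSP4 and DUSP6, which remove phosphate from ERK, and the Sprouty and SPRED proteins, which act between the receptor and RAF. ETV4 and ETV5 are ETS transcription factors whose genes are switched on by the same signal. The mRNA levels of such feedback and target genes are therefore often read as a record of ERK output, while ERK activity itself was not measured in these libraries.

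The total per library lay between 11242313 and 24457311 reads. The lowest total was that of p38-MAPKi replicate 1 after 7 h, which also had the fewest genes with a read, 14007 against 16349 to 17651 in the other 11 libraries. Levels are given as RPKM, reads per kilobase of the merged exons of a gene, scaled to the total of the library, and the differences as log2 fold changes with a standard error (SE) from limma. The study added no spike-in controls, so a lower level is a lower share of the library and not a measured fall in absolute amount. Trophectoderm markers were abundant in all libraries (summed level of 8 genes between 1770.0 and 2596 RPKM), epiblast and PrE markers were present, and of 6 cumulus cell genes Has2, Ptx3, and Tnfaip6 had no read in any library, Foxl2 and Inha had at most 46 and 22, and Amhr2 had 114 to 319.

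Promoter sequence was available for 6 of the 10 genes, and the 250 bases upstream of the annotated start are shown for Fgfr2 and Spry2, which were lower after p38-MAPKi in the fit over all libraries, and for Dusp6, a widely used ERK target. They are RefSeq sequences of GRCm38.p6, read 5′ to 3′ on the strand of the gene. They lie at chr7:130266809-130267058 (minus strand), chr14:105896820-105897069 (minus strand), and chr10:99262981-99263230 (plus strand), and capitals mark the motif AGGAAG of the PEA3 subfamily of ETS factors, to which ETV4 and ETV5 belong, on either strand.
Fgfr2: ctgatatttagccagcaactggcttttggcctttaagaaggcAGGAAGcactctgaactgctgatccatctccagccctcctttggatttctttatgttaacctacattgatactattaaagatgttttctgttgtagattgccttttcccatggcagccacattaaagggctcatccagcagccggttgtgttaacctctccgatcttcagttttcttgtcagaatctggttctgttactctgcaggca
Spry2: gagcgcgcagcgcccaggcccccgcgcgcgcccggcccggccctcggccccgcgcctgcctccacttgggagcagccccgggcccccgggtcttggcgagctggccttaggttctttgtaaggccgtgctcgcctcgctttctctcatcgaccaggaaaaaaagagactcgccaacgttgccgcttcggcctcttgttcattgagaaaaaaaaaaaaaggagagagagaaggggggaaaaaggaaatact
Dusp6: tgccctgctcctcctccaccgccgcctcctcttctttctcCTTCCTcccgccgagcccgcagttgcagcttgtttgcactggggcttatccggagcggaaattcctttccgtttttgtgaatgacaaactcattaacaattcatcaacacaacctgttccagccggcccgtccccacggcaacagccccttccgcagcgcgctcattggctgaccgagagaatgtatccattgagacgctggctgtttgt
The motif AGGAAG occurred in the windows of Fgfr2 and Dusp6, 2 of the 7 windows of these genes (Etv5 has 2), and in 29.5% of all 32851 windows of this length. The ETS motif CCGGAA (12% of all windows), the AP-1 motif TGANTCA (6.75%), and the cAMP response element TGACGTCA (1.55%) occurred in none of the 7. Shorter ETS sites, such as the GGAA within AGGAAG, were not counted. No sequence was at hand for Fgfr1, Dusp4, Spry4, and Etv4.

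In control blastocysts the most abundant member per kilobase was Spry2, with 48.5 ± 3.62 RPKM over the 6 control libraries (SD, n = 6). It was followed by Fgfr1 with 14.9 ± 1.55, Fgfr2 with 14.3 ± 1.31, Dusp4 with 11.5 ± 2.28, and Etv5 with 8.14 ± 1.24 RPKM. Dusp6 (4.80 ± 1.11 RPKM), Fgf4 (4.31 ± 0.340 RPKM), Spred1 (1.39 ± 0.291 RPKM), Spry4 (0.429 ± 0.153 RPKM), and Etv4 (0.312 ± 0.145 RPKM) were lower. The ranges of the control libraries overlapped between the neighbours Fgfr1 and Fgfr2, Fgfr2 and Dusp4, Dusp4 and Etv5, Dusp6 and Fgf4, and Spry4 and Etv4, so that the order within these pairs lies within the spread. Spry2 lay above Fgfr1 in every control library. The merged exons of Fgfr1 (9875 bases) and Fgfr2 (10328 bases) are longer than their longest annotated transcripts (5041 and 4429 bases), and per kilobase of those transcripts the control levels were 29.2 and 33.4, still below Spry2. The plot of levels by library gives each value.

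**Figure D1:**
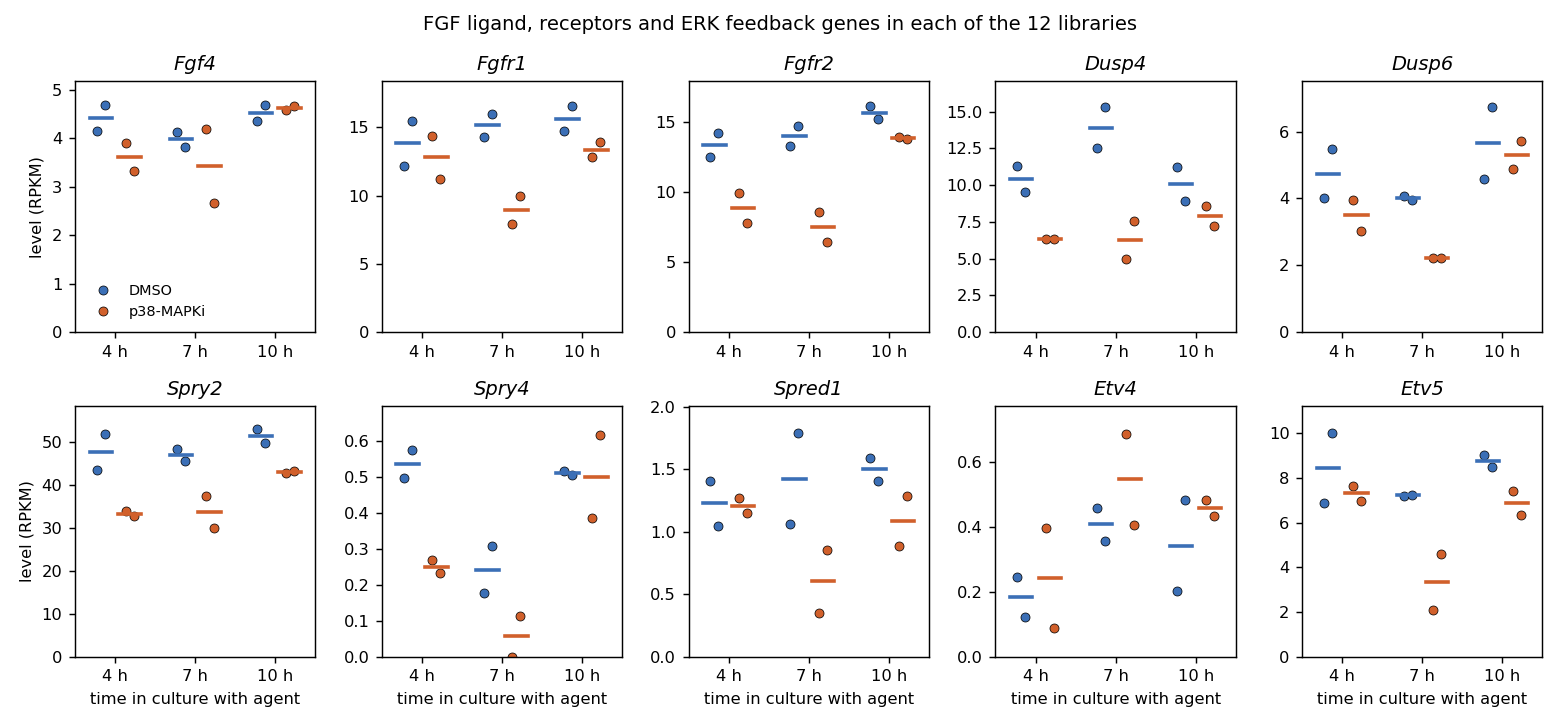
Level in RPKM (vertical axis, from 0, a separate scale for each gene) of the 10 genes in the 12 libraries, by time (horizontal axis) and agent; points are libraries and bars are means of 2. Fgfr2, Dusp4, and Spry2 had both p38-MAPKi libraries below both controls at each time, and the Spry4 point at 0 is a library without a read.

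Fgf4 (chromosome 7, 144847367 to 144865243, GRCm38, plus strand), the ligand, showed no change that passed the test. In the 4 h libraries the controls had 4.16 and 4.70 RPKM and the p38-MAPKi libraries 3.91 and 3.32 RPKM. In the 7 h libraries the controls had 4.14 and 3.83 RPKM and the p38-MAPKi libraries 4.20 and 2.67 RPKM. In the 10 h libraries the values were 4.36 and 4.69 RPKM in the controls and 4.59 and 4.67 RPKM with p38-MAPKi. The groups were apart at 4 h alone, and at 7 h the p38-MAPKi replicates lay on both sides of the controls. Over all times the log2 fold change was -0.17 (SE 0.128, limma adjusted p = 0.414).

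Fgfr1 (chromosome 8, 25513654 to 25575718, plus strand), the receptor carried by all inner cells in the early blastocyst, had 12.2 and 15.5 RPKM in the controls and 14.4 and 11.2 RPKM with p38-MAPKi at 4 h. With 7 h of culture the controls had 14.3 and 16.0 RPKM and the p38-MAPKi libraries 7.91 and 9.99 RPKM. With 10 h of culture the controls had 14.7 and 16.6 RPKM and the p38-MAPKi libraries 12.8 and 13.9 RPKM. The groups overlapped at 4 h and were apart at 7 and 10 h, with the wider gap at 7 h. The log2 fold change was -0.77 at 7 h (SE 0.204, adjusted p = 0.0636) and -0.37 over all times (SE 0.127, adjusted p = 0.112), neither past the threshold in the reported limma fits. Over 9 ways of processing, the reported one included, the limma adjusted p of Fgfr1 at 7 h ran from 0.00974 to 0.174 and passed in 3. Of its exon bases, 164 overlap Gm16159 on the opposite strand, and the strand option of the counting is not stated.

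Fgfr2 (chromosome 7, 130162451 to 133123350, minus strand), the receptor enriched in PrE cells and trophectoderm, was lower after p38-MAPKi in the fit over all times. With 4 h of culture the controls had 12.5 and 14.2 RPKM and the p38-MAPKi libraries 9.93 and 7.80 RPKM. After 7 h the values were 13.3 and 14.7 RPKM against 8.55 and 6.43 RPKM. After 10 h they were 16.1 and 15.2 RPKM against 13.9 and 13.8 RPKM. Each of the 6 p38-MAPKi libraries lay below both controls of its time, and the values with p38-MAPKi at 10 h were within the range of the 4 h and 7 h controls. In the fit over the 12 libraries the log2 fold change was -0.56 (SE 0.127, limma adjusted p = 0.036). Within single times it did not pass in the reported fits: the log2 fold change was -0.60 at 4 h (adjusted p = 0.226), -0.92 at 7 h (adjusted p = 0.0544), and -0.18 at 10 h (adjusted p = 0.27). Over 9 ways of processing, the reported one included, the limma adjusted p of Fgfr2 at 7 h ran from 0.00327 to 0.158 and passed in 4. An annotated transcript of Fgfr2 extends into Ctbp2 on the same strand and shares 314 exon bases with it, 3.04% of the length counted. Ctbp2, a transcriptional corepressor, had 14.2 and 16.9 RPKM in the 7 h controls and 13.0 and 11.9 RPKM with p38-MAPKi, and its groups overlapped at 4 and 10 h.

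Dusp4 (chromosome 8, 34807297 to 34819894, plus strand) codes for a nuclear phosphatase of ERK and related kinases and passed the test both at 7 h and over all times. After 4 h the controls had 11.3 and 9.55 RPKM and the p38-MAPKi libraries 6.31 and 6.33 RPKM. In the 7 h libraries the controls had 12.5 and 15.3 RPKM and the p38-MAPKi libraries 5.00 and 7.54 RPKM. In the 10 h libraries the controls had 11.2 and 8.90 RPKM and the p38-MAPKi libraries 8.60 and 7.24 RPKM. All 6 p38-MAPKi libraries lay below both controls of their time, by the smallest margin at 10 h. Dusp4 fell at 7 h (log2 fold change -1.17, SE 0.246, limma adjusted p = 0.0487) and over all times (-0.74, SE 0.149, adjusted p = 0.0253). At 4 h the log2 fold change was -0.72 (SE 0.231, adjusted p = 0.105) and at 10 h -0.34 (SE 0.144, adjusted p = 0.254). Without control replicate 1 the adjusted p at 7 h was 0.0612, without control replicate 2 it was 0.363, and without the shallow p38-MAPKi replicate 1 it was 0.0351 with a log2 fold change of -0.88. The call at 7 h was also lost without the variance trend of limma (0.158), with each library centred on its median (0.0706), and with the length trend removed (0.0633).

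Dusp6 (chromosome 10, 99263231 to 99267489, plus strand), which codes for the cytoplasmic phosphatase specific to ERK, had 4.01 and 5.47 RPKM in the controls and 3.94 and 3.04 RPKM with p38-MAPKi at 4 h. With 7 h of culture the controls had 4.08 and 3.94 RPKM, and both p38-MAPKi libraries had 2.22 RPKM. With 10 h of culture the controls had 4.58 and 6.73 RPKM and the p38-MAPKi libraries 4.87 and 5.72 RPKM. The gap at 7 h was wide against the replicates, and at 10 h both p38-MAPKi libraries lay between the controls. The log2 fold change of -0.86 at 7 h (SE 0.280, limma adjusted p = 0.0943) and of -0.46 over all times (SE 0.156, adjusted p = 0.114) did not pass. The reads behind these values were few, between 78 and 491 per library.

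Spry2 (chromosome 14, 105891949 to 105896819, minus strand), a Sprouty gene whose product limits signalling from FGF receptors, had the narrowest errors. In the 4 h libraries the controls had 43.5 and 51.7 RPKM and the p38-MAPKi libraries 33.8 and 32.8 RPKM. After 7 h the values were 48.2 and 45.4 RPKM against 37.4 and 30.0 RPKM. After 10 h they were 52.9 and 49.6 RPKM against 42.7 and 43.3 RPKM. The p38-MAPKi libraries were below both controls of their time in 6 of 6 cases, and none of them reached the lowest control value of any time. Over all times Spry2 fell by 0.41 on the log2 scale (SE 0.085, limma adjusted p = 0.028). The log2 fold changes at the single times, -0.51 at 4 h (adjusted p = 0.29), -0.48 at 7 h (adjusted p = 0.129), and -0.25 at 10 h (adjusted p = 0.116), did not pass.

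Spry4 (chromosome 18, 38586268 to 38601268, minus strand), another Sprouty gene, did not reach the filter of 1 RPKM in 2 libraries and was not tested. Its reads were 39 and 48 in the controls and 30 and 23 with p38-MAPKi at 4 h. They were 17 and 33 against 0 and 9 at 7 h, and 45 and 54 against 39 and 69 at 10 h. The p38-MAPKi libraries thus held less than the controls per read sequenced at 4 and 7 h (0.269 and 0.232 against 0.497 and 0.573 RPKM at 4 h), with overlap at 10 h. The library without a read allows a level of up to 0.0582 RPKM (3 reads), which covers counting error only.

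Spred1 (chromosome 2, 117121374 to 117182279, plus strand), whose product brings the RAS inhibitor neurofibromin to the membrane, had 1.41 and 1.05 RPKM in the controls and 1.27 and 1.15 RPKM with p38-MAPKi at 4 h. In the 7 h libraries the controls had 1.06 and 1.79 RPKM and the p38-MAPKi libraries 0.354 and 0.854 RPKM. In the 10 h libraries the controls had 1.59 and 1.41 RPKM and the p38-MAPKi libraries 0.884 and 1.29 RPKM. The groups overlapped at 4 h and were apart at 7 and 10 h, with wide gaps between replicates. The log2 fold change of -1.32 at 7 h had an SE of 0.722 (limma adjusted p = 0.257), and it was -0.69 without p38-MAPKi replicate 1 (adjusted p = 0.417) and -1.96 without p38-MAPKi replicate 2 (adjusted p = 0.00797). The lowest value came from the shallow library, with 27 reads.

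Etv5 (chromosome 16, 22381309 to 22439719, minus strand), the ETS factor gene expressed at a testable level, had 6.86 and 10.0 RPKM in the controls and 7.64 and 6.97 RPKM with p38-MAPKi at 4 h. With 7 h of culture the controls had 7.21 and 7.24 RPKM and the p38-MAPKi libraries 2.10 and 4.58 RPKM. With 10 h of culture the controls had 9.02 and 8.47 RPKM and the p38-MAPKi libraries 7.39 and 6.34 RPKM. The groups overlapped at 4 h and were apart at 7 and 10 h. The log2 fold change at 7 h was -1.22 (SE 0.349, limma adjusted p = 0.0718), and it was -0.66 without p38-MAPKi replicate 1 (adjusted p = 0.124) and -1.78 without p38-MAPKi replicate 2 (adjusted p = 0.000305). Over all times the log2 fold change was -0.59 (SE 0.203, adjusted p = 0.117). Etv4 (chromosome 11, 101769742 to 101785371, minus strand), its close relative, had 6 to 35 reads per library and was not tested, and its groups overlapped at all 3 times.

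Together, 0 of the 8 members tested passed at 4 h, 1 (Dusp4) at 7 h, and 0 at 10 h, where limma called 0.909%, 2.13%, and 0.803% of all genes in either direction (1.2% as lower at 7 h). Voom on the recovered reads called 0, 4, and 0 of the 8, where it called 34 of 10781, 1732 of 10940, and 531 of 10959 genes. At an unadjusted p under 0.05, 3 members were lower at 4 h (Fgfr2, Dusp4, and Spry2, against 3.03% of all genes), 6 at 7 h (against 17.7%), and 3 at 10 h (Fgfr1, Spry2, and Etv5, against 11.6%). Both p38-MAPKi libraries lay below both controls for 5 of 8 members at 4 h, 7 of 8 at 7 h, and 6 of 8 at 10 h, and the shares over all genes tested were 13.7%, 38.7%, and 29.6%. These shares cover genes of all lengths, and the members were chosen with earlier results of these data known, so the counts are a description. The median log2 fold change of the members was -0.37, -0.89, and -0.24, beside 0.07, -0.14, and -0.02 over all genes. Over all times, 3 of 8 members were called (Fgfr2, Dusp4, and Spry2), all lower, where 2.67% of all genes were called and 1.24% were called as lower. These 3 were also called without the shallow library (adjusted p between 0.0236 and 0.0463) and after removal of the length trend (0.0176 to 0.038). They were not called when the 7 h libraries were left out, with log2 fold changes of -0.39 for Fgfr2 (adjusted p = 0.227), -0.53 for Dusp4 (adjusted p = 0.116), and -0.38 for Spry2 (adjusted p = 0.131), nor without the variance trend (0.0543 to 0.0704) or without a filter (0.0802 to 0.149). Leaving out either control replicate at 7 h, or replicate 2 of p38-MAPKi at 4 or 7 h, ended each of the 3 calls, with adjusted p between 0.0509 and 0.0953, as did control replicate 2 at 4 h.

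**Figure D2:**
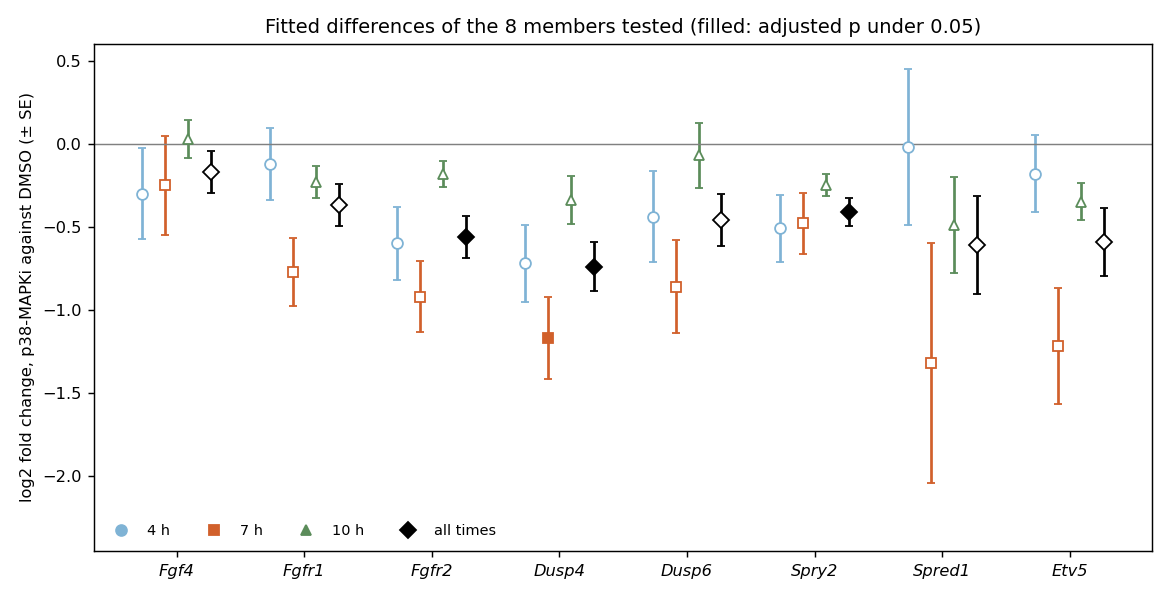
Log2 fold change of p38-MAPKi against DMSO (vertical axis, bars are SE from limma) for the 8 members tested, at 4, 7, and 10 h (2 against 2 libraries each) and over all times (12 libraries); filled symbols passed an adjusted p of 0.05. Dusp4 passed at 7 h (-1.17) and, with Fgfr2 and Spry2, over all times, and the value of Fgf4 over all times (-0.17) was the one nearest to 0 in that fit.

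Whether the response differed between times was tested as an interaction. Between 4 and 7 h and between 7 and 10 h no member passed in limma, where 0.00884% and 0.00877% of all genes were called. With voom, the weighting of limma for reads, 0 members passed from 4 to 7 h and 1 (Fgfr2) from 7 to 10 h. Of all genes, voom called 0 of 11311 and 897 of 11400. From 7 to 10 h every tested member moved towards a smaller decrease or a rise, with a median change of 0.76 against 0.15 over all genes. Of 41 other genes of the pathway, 35 moved in the same direction, with a median of 0.47 over the 41. Among the members Fgfr2 came closest to passing, with a change of 0.74 (SE 0.217, adjusted p = 0.095), followed by Dusp4 with 0.83 (SE 0.316, adjusted p = 0.15), Dusp6 with 0.78 (SE 0.298, adjusted p = 0.15), and Fgfr1 with 0.54 (SE 0.211, adjusted p = 0.156). These 4 had an unadjusted p under 0.05, as did 15.9% of all genes in this direction. From 4 to 7 h the changes with an unadjusted p under 0.05 (4.84% of all genes in this direction) were those of Etv5 (-1.04, SE 0.450, adjusted p = 0.661) and Fgfr1 (-0.65, SE 0.296, adjusted p = 0.661). Without p38-MAPKi replicate 2 at 7 h, the adjusted p was 0.0264 for Etv5 from 4 to 7 h, and from 7 to 10 h it was 0.0461 for Fgfr2, 0.0232 for Dusp4, 0.0294 for Fgfr1, and 0.00892 for Etv5 (0.246 with all libraries), so 1 library decides these outcomes.

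Among the controls, which gave the course in untreated culture, no member passed between 4 h and 7 h, 7 h and 10 h, or 4 h and 10 h, where limma called 0.492%, 0.0552%, and 0.471% of all genes, and voom called 0 members as well. At an unadjusted p under 0.05 there was 1 member, Dusp4, in each of the first comparisons (3.94% of all genes higher at 7 h, 1.6% lower at 10 h) and 0 in the last. The largest differences were those of Dusp4, which was higher at 7 h than at 4 h by a log2 fold change of 0.41 (SE 0.193, adjusted p = 0.883) and differed by -0.47 between 10 h and 7 h (SE 0.165, adjusted p = 1), and of Dusp6, which differed by 0.47 between 10 h and 7 h (SE 0.208, adjusted p = 1). The 7 h controls are shared by the treatment comparison at 7 h, so the high control values of Dusp4 enter both.

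The size of the differences moved with the length of the genes. At 7 h the median log2 fold change over all genes was 0.27 in the shortest of 4 equal classes of merged exon length (up to 2338 bases) and -0.45 in the longest (over 6114 bases). It was 0.20 and -0.10 at 4 h and -0.05 and -0.00 at 10 h. Spry2 (2085 bases) belongs to the shortest class, while Dusp4 (2740), Dusp6 (3132), and Fgf4 (3195) belong to the next, Etv5 (4103) to the one after, and Spred1 (6784), Fgfr1, and Fgfr2 to the longest. With the trend of each library on length removed, the log2 fold change at 7 h was larger for Spry2 (-0.68 in place of -0.48) and Dusp4 (-1.28 in place of -1.17), and smaller for Fgfr1 (-0.43 in place of -0.77) and Fgfr2 (-0.56 in place of -0.92). At 4 h Dusp4 (-0.80, adjusted p = 0.0339) and Spry2 (-0.63, adjusted p = 0.0342) then passed, and Fgfr1 (0.07) and Spred1 (0.08) changed sign. In the plot by length, Fgfr2, Dusp4, and Spry2 lie below the middle 50% of genes of like length at 4, 7, and 10 h, and Fgfr1 lies at the lower edge of that band at 7 h. The part of the length trend in these results was not tested beyond these fits.

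**Figure D3:**
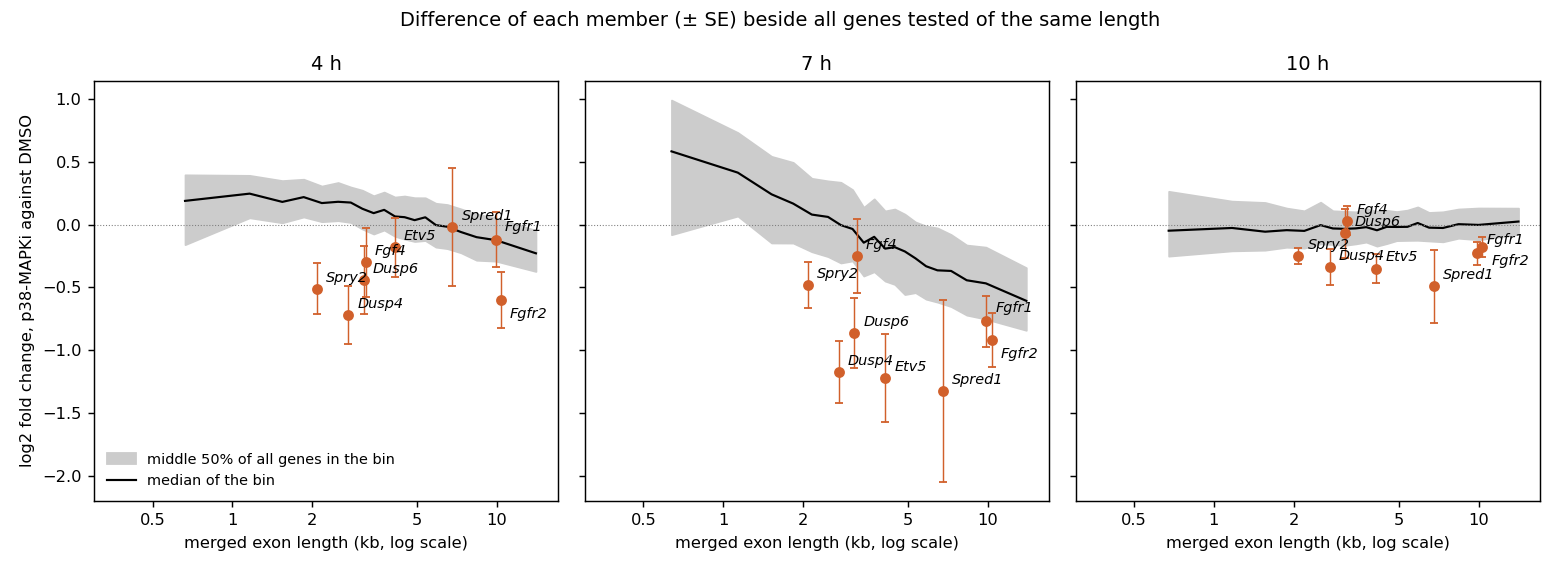
Log2 fold change of p38-MAPKi against DMSO (vertical axis) by merged exon length in kb (horizontal axis, log scale) at 4, 7, and 10 h; the line is the median and the band the middle 50% of all genes tested in 20 bins of length, and points with SE bars are the members. The line falls with length at 4 and 7 h and is flat at 10 h, and Dusp4, which had -0.72 and -1.17 at 4 and 7 h, lies below the band at both.

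Markers of the embryonic lineages moved with the members in part. The summed level of 8 epiblast markers was 311 to 345 RPKM in the controls and 293 to 295 RPKM with p38-MAPKi at 4 h, 301 to 316 against 235 to 246 RPKM at 7 h, and 304 to 308 against 283 to 288 RPKM at 10 h, and 0 of the 8 genes passed at any time. Most of this sum was Nanog, whose groups overlapped at each time (7 h means 114 against 121 RPKM), and Tfcp2l1 (52.1 against 89.4 RPKM at 7 h). Of the 8 genes, 7 had a negative log2 fold change at each time, while Gdf3 lay above both controls (11.9 against 9.12 RPKM at 7 h). The summed level of 10 PrE markers was 201 to 218 RPKM in the controls and 138 to 143 RPKM with p38-MAPKi at 7 h and overlapped at 4 and 10 h. Most of the 7 h sum was Gata6 (means 83.0 against 115 RPKM) and Dab2 (26.1 against 52.4 RPKM). The log2 fold change was negative for 8 of 8 tested PrE markers at 7 h, though the groups of Sox17 and Lama1 overlapped, and for 4 of 8 at 10 h. Of the 8 PrE markers tested, 1 passed at 7 h (Dab2, an endocytic adaptor, with 57.5 and 47.3 RPKM in the controls and 24.0 and 28.3 RPKM with p38-MAPKi, limma adjusted p = 0.0461), and Foxa2 had at most 1 read in a library. The Dab2 call was lost without the variance trend of limma and with median centring, where 0 of all genes were called at 7 h. The trophectoderm sum was higher with p38-MAPKi at 4 h (1955 to 1986 against 1770.0 to 1927 RPKM) and overlapped at 7 and 10 h. Most of this sum was Krt8 and Krt18, with 4 h means of 571 and 1063 RPKM against 493 and 949 RPKM in the controls. Tfap2c was also higher at 4 h (49.6 against 41.9 RPKM). Cdx2 (155 against 207 RPKM) and Gata3 (66.6 against 96.5 RPKM) were lower there, and the groups of Eomes, Elf5, and Tead4 overlapped. Of the 7 trophectoderm markers tested, none passed at a single time, and Cdx2 (-0.38, adjusted p = 0.0336) and Gata3 (-0.51, adjusted p = 0.0169), which code for transcription factors, passed over all times. The summed level of the 6 cumulus genes, nearly all of it Amhr2, was 3.33 to 3.56 RPKM in the controls and 4.80 to 7.60 RPKM with p38-MAPKi at 4 h, 5.10 to 5.22 against 5.69 to 6.04 RPKM at 7 h, and overlapped at 10 h. The part of the cell types in the differences of the members was not tested.

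Of 57 further genes of the pathway, 41 were tested at 4 h, 38 at 7 h, 40 at 10 h, and 41 over all times, and those that passed (1, 4, 1, and 4 genes) were lower after p38-MAPKi in each case, where 0.909%, 2.13%, 0.803%, and 2.67% of all genes passed in either direction. At 4 h it was Myc alone, a growth-promoting transcription factor gene, with 5.23 and 7.72 RPKM in the controls and 2.45 and 2.83 RPKM with p38-MAPKi (log2 fold change -1.27, SE 0.272, limma adjusted p = 0.0011). At 7 h 4 genes passed. Frs2, the docking protein of FGF receptors, had a log2 fold change of -1.20 (adjusted p = 0.0456), Sos1, the exchange factor that loads RAS with GTP, -1.23 (adjusted p = 0.0461), Crkl, an adaptor, -1.13 (adjusted p = 0.0461), and Cbl, a ubiquitin ligase of activated receptors, -1.15 (adjusted p = 0.0487). Frs2 had 20.9 and 23.3 RPKM in the 7 h controls and 9.23 and 9.94 RPKM with p38-MAPKi, and its groups overlapped at 10 h (21.2 and 20.9 against 21.8 and 18.2 RPKM). At 10 h Ier3, an immediate early gene, was the only one, with 3.07 and 3.99 RPKM in the controls and 0.883 and 1.19 RPKM with p38-MAPKi (log2 fold change -1.77, SE 0.242, adjusted p = 0.0403). Over all times Myc (-1.10, adjusted p = 0.0091), Ier3 (-1.01, adjusted p = 0.0336), Sos1 (-0.67, adjusted p = 0.0442), and Spred2 (-0.45, adjusted p = 0.0494), which is related to Spred1, passed. With 1 of the 12 libraries left out in turn, Myc passed in 12 of 12 cases, Ier3 and Sos1 in 3 each (adjusted p up to 0.0809 and 0.117), and Spred2 in 1 (up to 0.117). Myc depended on the processing as well. Counting the reported fit and its alternatives without single libraries left out, Myc passed in 5 of 9 at 4 h (limma adjusted p up to 0.295). Over all times it passed in 7 of 10 (up to 0.0799). With the length trend removed, Frs2 (-0.90, adjusted p = 0.0549), Sos1 (-0.92, 0.0633), Crkl (-1.11, 0.0624), and Cbl (-0.74, 0.0854) no longer passed at 7 h. Nor did these 4 pass there without control replicate 2 (0.291 to 0.364), with median centring (0.0694 to 0.0696), or without the variance trend (0.158), while Myc at 4 h did not pass without either control replicate (0.0663 and 0.519) and Ier3 at 10 h did not pass without control replicate 2 (0.0683). The median of the tested genes was -0.08 at 4 h, -0.37 at 7 h, -0.01 at 10 h, and -0.20 over all times, beside 0.07, -0.14, -0.02, and -0.03 over all genes. A positive log2 fold change was found for 18 of 41 at 4 h, 7 of 38 at 7 h, 19 of 40 at 10 h, and 13 of 41 over all times.

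The remaining parts of the pathway held no gene that passed. Among the other receptors, Fgfr4 (2.81 ± 0.614 RPKM in the controls, SD, n = 6) had a log2 fold change of 0.28 over all times (SE 0.158, limma adjusted p = 0.275) and Fgfrl1, a receptor without a kinase domain, of 0.36 (SE 0.205, adjusted p = 0.282). Their signs were opposite to those of Fgfr1 and Fgfr2, and none of the 4 but Fgfr2 passed. In the RAS-ERK cascade, the MEK2 gene Map2k2 (33.4 ± 2.31 RPKM) had 0.14 (SE 0.115, adjusted p = 0.438), an average over times that differed in direction. Its means with p38-MAPKi were 43.8 RPKM at 4 h, 44.6 at 7 h, and 25.6 at 10 h, against 32.7, 35.6, and 31.9 RPKM in the controls. Of the other FGF ligands, Fgf10 (1.48 ± 0.462 RPKM) was the only one with enough reads to test (-1.27, SE 0.620, adjusted p = 0.217), and Fgf13 stood at 0.691 ± 0.203 RPKM. Fgf10 had -0.79 at 4 h and -0.20 at 10 h. At 7 h it missed the filter, with 2 reads in the shallow p38-MAPKi library and 62 in replicate 2. At 4 and 10 h, where no adaptor or further feedback gene passed, the adaptor gene Grb2 had 0.18 and -0.21 (adjusted p = 0.824 and 0.179), the SHP2 phosphatase gene Ptpn11 -0.11 and -0.13 (0.898 and 0.401), and Rasa1, which codes for a GTPase-activating protein of RAS, -0.27 and -0.05 (0.754 and 0.793), and Cbl had -0.37 and 0.12 (0.64 and 0.627). At 7 h, where no further ERK output passed, Phlda1 had 0.06 (adjusted p = 0.845) and Myc -1.32 (adjusted p = 0.0503).

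**Figure D4:**
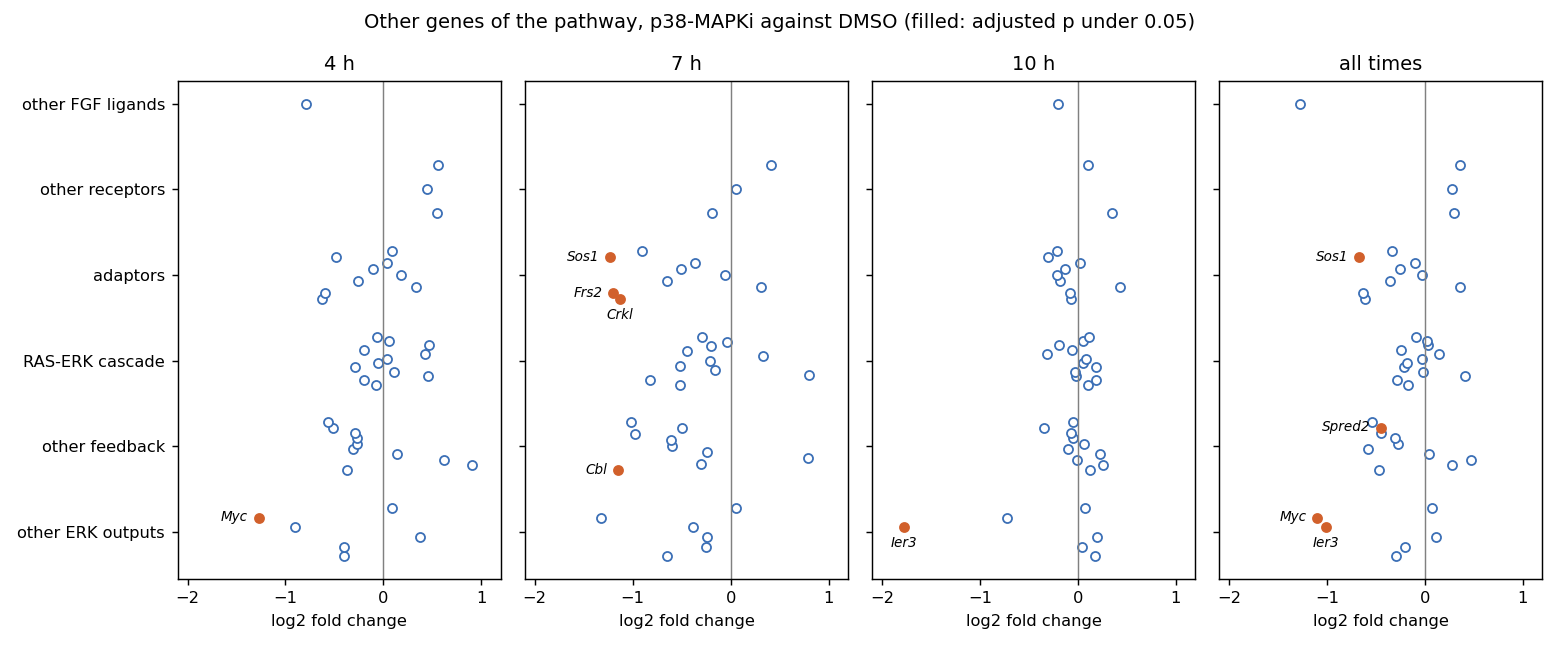
Log2 fold change of p38-MAPKi against DMSO (horizontal axis) for the further pathway genes that were tested, by role (vertical axis), at 4, 7, and 10 h and over all times; filled and named points passed an adjusted p of 0.05 in limma. The named points, such as Myc with -1.27 at 4 h, lie left of 0 in each panel.

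The genes whose log2 levels followed a member most closely over the 12 libraries were searched among 9387 others with at least 1 RPKM in every library. This was done for both receptors, Dusp6, and Fgf4. For Fgfr2 they were Fem1c and Slf2 (Pearson r = 0.986 each) and March7 (0.976, listed under a symbol that a spreadsheet had turned into a date). For Fgfr1 they were Trappc11 and Kat2b (0.981 each) and Trappc12 (0.975), for Dusp6 Cenpc1 (0.958), Rin3 (0.955), and Tmem131l (0.953), and for Fgf4 Rhno1 (0.937), Mbnl2 (0.934), and Fbxo3 (0.926). The points are the same 12 libraries for each gene and carry the length trend, so the values are a description. All 12 genes had longer merged exons (4552 to 11726 bases) than the median of the genes compared (4010 bases).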

How the data were processed

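Each library was poly(A) mRNA of 30 pooled blastocysts, read as 50-base single ends. Per the submitters' processing notes and the study's methods, the tools were Trim Galore 0.4.1 for trimming, HISAT2 2.0.5 for alignment to GRCm38, and SeqMonk for counting, and the authors deposited log2 RPKM for each replicate. The strand option of the counting is not given in the sources used here. Where no read was counted, the table carries what 0.9 reads would give, and from this constant depths, gene lengths, and whole reads were recovered for all 34245 genes (relative tolerance 1.5e-06). Of 31868 genes found in GENCODE M21, 90.8% had the length of their merged exons.

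The deposited log2 values were tested without a further pseudocount with limma 3.58.1 (eBayes with trend) in R 4.3.3: p38-MAPKi against DMSO in the 4 libraries of each time, over all times with time as a factor, the interactions in 8 libraries, and the control times. A gene was tested where 2 or more libraries of a fit reached 1 RPKM, and p-values were adjusted over all of them (Benjamini-Hochberg, threshold 0.05). At 4 h and between the 4 and 7 h controls, limma estimated an infinite prior, so each gene took its variance from the trend alone. The fits were tested on simulated data, in which the share of false calls exceeded the nominal level at each time and was highest at 7 h. Motif shares leave out the promoters of chromosome 18. The replicates are labelled as biological, and with 2 per group no exact permutation test within a time can pass 0.05; a permutation within times over all 12 libraries was not run. The members, the pathway list, the markers, and the motifs were chosen with earlier results of these data known. All 10 members were named, and of the pathway list, in each comparison with p38-MAPKi, those past the threshold or, for a role with none, the 2 highest in the controls, of which 1 is not reported here. Alternatives were limma without the trend, no filter, log2(RPKM + 1), median centring, removal of the length trend (loess, span 0.5), voom on the recovered reads, the replicate number as a block, 1 fit over 12 libraries, and leaving out each library. The fits without the 7 h libraries were added after seeing the data. Other steps ran in Python 3.11.15, with figures from matplotlib 3.10.9.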

Additional observations from a re-analysis of the deposited data

How the results depend on the processing

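With 2 libraries per group, calls near the threshold moved with the processing. Of the differences of single members, Fgfr1 (0.07) and Spred1 (0.08) at 4 h changed sign when the length trend was removed. The numbers of genes called in the reported fits were 98, 233, and 88 at 4, 7, and 10 h, 310 over all times, 1 for each interaction, and 53, 6, and 51 for the controls (7 h against 4 h, 10 h against 7 h, 10 h against 4 h). Limma without the trend gave 11, 0 (2629 at an unadjusted p under 0.05), and 9 at the 3 times, 121 over all times, 0 for the change from 4 to 7 h (584 unadjusted), and 5, 14, and 26 for the controls. Without a filter there were 0 at 4 h (7469 unadjusted), 1236 at 7 h, 0 at 10 h (3293 unadjusted), 9 over all times, 0 for the change from 7 to 10 h (4266 unadjusted), 0 between the 4 and 7 h controls (6528 unadjusted), and 16 between the 7 and 10 h controls. With log2(RPKM + 1) there were 509 at 7 h and 3 between the 7 and 10 h controls. Median centring moved the median of all genes at 7 h from -0.14 to 0.05 and left 0 genes at 4 h (1070 unadjusted), 0 at 7 h (3053 unadjusted), 0 for both interactions (602 and 2907 unadjusted), 0 between the 4 and 7 h controls (320 unadjusted), 3 between the 7 and 10 h controls, and 584 over all times. Removal of the length trend gave 22 at 7 h, 298 at 10 h, and 249 between the 4 and 10 h controls. Voom gave 34, 1732, and 531 at the 3 times, 0 (907 unadjusted) and 897 for the interactions, and 9 and 486 for the 7 h and 10 h controls against 4 h. A fit over the 12 libraries, with 11590 genes tested, gave 0 (1262 unadjusted), 2512, and 0 (631 unadjusted) at the 3 times. Of the 8 members it called 0, 6, and 0. Without the 7 h libraries there were 21 over all times, and 38 with the length trend removed as well. The cause of these moves was not tested.

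The reported fits did not pair the libraries by replicate number. The replicate differences of the 2 groups correlated over genes with r = -0.01, 0.16, and 0.17 at 4, 7, and 10 h. These values cannot decide whether libraries with the same replicate number belong together. With the replicate block the counts were 2023 at 7 h, 410 at 10 h, 76 over all times, 2 and 610 for the interactions, and 0 (426 unadjusted), 28, and 536 for the controls, and 4 of 8 members passed at 7 h.

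Leaving out 1 library in turn gave 9 to 424 genes at 4 h, 0 to 2919 at 7 h, 78 to 140 at 10 h, 64 to 589 over all times, 0 to 293 and 0 to 2905 for the interactions, and 10 to 58, 3 to 221, and 46 to 1228 for the controls. A lone library was assumed to vary like the others of its fit. Over the libraries left out, Dusp4 stayed between -0.84 and -0.62 over all times (adjusted p from 0.0202 to 0.0661), Fgfr2 between -0.62 and -0.47 (0.036 to 0.0953), and Spry2 between -0.45 and -0.37 (0.0241 to 0.0804). Dusp4 and Fgfr2 were also not called over all times without control replicate 1 at 4 h (0.0616 and 0.0688), nor Fgfr2 without p38-MAPKi replicate 2 at 10 h (0.0524), whereas Myc was called in each of the 12 cases. With the replicate block, Fgfr2 (0.0865) and Spry2 (0.069) did not pass over all times and Dusp4 did (0.0449). Counting the reported fit and its alternatives without single libraries left out, Myc passed over all times in 7 of 10, Dusp4 in 6, and Fgfr2 and Spry2 in 5 each. Signs changed at 4 h for Fgfr1 (-0.30 to 0.06), Spred1 (-0.23 to 0.20), and Etv5 (-0.46 to 0.09), for Fgf4 at 7 h (-0.57 to 0.08) and 10 h (-0.02 to 0.09), for Dusp6 at 10 h (-0.35 to 0.21), and for Dusp4 between the 4 and 10 h controls (-0.22 to 0.11). Depth limits Spry4 and Etv4, which had at most 69 and 35 reads, and Spred1, Fgf4, and Dusp6 in the shallow library.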
